A study of Mus musculus with 18 samples.

Results

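A set of 1016 ATAC-seq peaks was more accessible in murine peripheral T-cell lymphomas (mPTCL) than in every normal lymphocyte library measured beside them. ATAC-seq cuts and tags open chromatin with the Tn5 transposase, so the count in a peak measures how accessible that stretch of DNA was. The peaks were chosen by their own values: on the 14 autosomes left after chromosomes 3, 4, 5, 11 and 15 were set aside, at least 7 of the 9 lymphoma libraries had to exceed the highest of the 9 normal libraries. Of the 36972 peaks on those chromosomes, 2.75% met this rule, out of 61224 peaks of 500 bp in the whole table. The opposite rule, with at least 7 lymphomas below the lowest normal library, was met by 1979 peaks, or 5.35%. Because the rule used the comparison of lymphomas with normal cells, that comparison is given below as a description and carries no test.

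The lymphomas came from p53KO T cells that had been moved into syngeneic CD3KO recipients, all on C57BL/6, and the cells were sorted from the liver without the labels naming the sort markers. The normal cells were wild type. From the spleen came T cells sorted as CD3+ thy1+ and NK cells sorted as CD27- CD11b+. NKT cells were CD3+ CD1dTet(alpha Gal Cer)+ cells of the liver, although their titles carry "Sp". Each normal group had 3 libraries. Every lymphoma-to-normal comparison therefore changes malignant state, genotype and sort at once, and organ as well for T and NK cells. Transfer into CD3KO recipients is named for the lymphomas alone. These differences cannot be told apart. Nothing in the labels ties the 3 libraries of a normal group to different animals, and the spread between them may be technical.

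Open chromatin marks promoters, enhancers and other regulatory DNA, and promoters are open in many cell types while distal elements differ more between lineages. T cells recognise antigen through a clonal receptor, NK cells kill with germline-encoded receptors, and NKT cells combine an invariant T-cell receptor with several NK receptors. A 500 bp peak is a window around such an element, and its gene is named by position, which does not show that it controls that gene.

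The sequences of 4 promoters show the kind of DNA that some of these peaks cover. They are RefSeq windows from 250 bases before to 50 bases after a gene start (GRCm38.p6), printed 5′ to 3′ on the gene's strand with every CG dinucleotide in capitals. Cfap221 and Pxt1 were the promoters of largest separation that had a RefSeq window with at least 150 bases in the peak, Lrfn4 had one of the smallest spreads over the lymphomas, and Gzmm is a cytotoxic granule gene.
Cfap221, chr1:119997183-119997482, minus strand: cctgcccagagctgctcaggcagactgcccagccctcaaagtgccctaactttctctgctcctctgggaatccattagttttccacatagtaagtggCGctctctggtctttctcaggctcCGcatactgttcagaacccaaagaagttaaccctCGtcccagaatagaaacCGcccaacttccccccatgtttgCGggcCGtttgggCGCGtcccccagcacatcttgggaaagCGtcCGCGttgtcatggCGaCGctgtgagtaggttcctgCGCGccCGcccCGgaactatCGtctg
Pxt1, chr17:28942213-28942512, minus strand: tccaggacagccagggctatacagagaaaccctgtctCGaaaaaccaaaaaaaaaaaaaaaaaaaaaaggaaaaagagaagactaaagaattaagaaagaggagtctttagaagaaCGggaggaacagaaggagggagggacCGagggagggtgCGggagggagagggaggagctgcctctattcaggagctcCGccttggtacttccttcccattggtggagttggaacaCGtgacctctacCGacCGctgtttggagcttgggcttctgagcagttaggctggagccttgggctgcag
Lrfn4, chr19:4615618-4615917, minus strand: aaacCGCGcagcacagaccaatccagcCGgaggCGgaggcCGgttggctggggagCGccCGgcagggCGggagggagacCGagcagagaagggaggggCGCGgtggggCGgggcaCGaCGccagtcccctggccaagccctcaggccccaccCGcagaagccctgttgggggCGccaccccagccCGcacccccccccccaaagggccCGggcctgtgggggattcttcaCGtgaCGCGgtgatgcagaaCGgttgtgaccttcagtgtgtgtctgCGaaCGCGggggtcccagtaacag
Gzmm, chr10:79688770-79689069, plus strand: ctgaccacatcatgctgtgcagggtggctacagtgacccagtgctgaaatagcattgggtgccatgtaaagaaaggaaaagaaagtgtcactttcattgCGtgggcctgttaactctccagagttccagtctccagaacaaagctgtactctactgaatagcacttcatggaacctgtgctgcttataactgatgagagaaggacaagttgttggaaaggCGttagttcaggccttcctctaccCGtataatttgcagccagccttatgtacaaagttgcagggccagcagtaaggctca
GC content was 57.7% in the Cfap221 window, 50.7% in Pxt1, 71.3% in Lrfn4 and 47.3% in Gzmm, with 18, 8, 25 and 3 CG dinucleotides. The Lrfn4 window was thus the richest of the 4 in CG pairs and the Gzmm window the poorest.

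Across all gained peaks at promoters, 100 RefSeq windows had at least 150 bases inside 86 peaks. Their median GC content was 61.2%, against 62.3% in the 7502 windows inside any peak of the 14 chromosomes, 58.7% in the 855 windows inside the 5 weaker of 10 equal classes of peaks by mean level, and 52.3% over all 22407 windows. Their median number of CG dinucleotides was 19.5, against 22, 13 and 7. The medians of the gained windows thus lay just below those of all open promoters and above those of weaker open promoters and of promoters at large. The ETS-type word CCGGAAGT, searched on both strands, was in 0 of the 100 windows, in 9.29% of windows inside any peak and in 2.46% of those inside the 5 weaker classes. Of the 1016 gained peaks, 799 lay in these weaker classes, and beside the share there 0 of 100 sets little apart. A CTCF core word was in 4% of the gained windows, 1.61% of windows inside any peak and 0.866% of all windows. The MYC-type word CACGTG, which the Pxt1 and Lrfn4 windows each hold, was in 7% of the gained windows, 10.7% of windows inside any peak and 6.88% of all windows. The E-box CAGCTG was in 14%, 14.1% and 16.2% of the same sets. The AP-1 word TGANTCA was in 2 of the 100 windows and in 4.72% of windows inside any peak, the RUNX word TGTGGTT in 2 and 3.63%, the GATA word AGATAA in 2 and 5.17%, and an interferon-response word in 4 and 2.65%. The PU.1 word GAGGAAGT was in 1 and 3.13%, an NF-kappaB word in 1 and 1.36%, the NR4A word AAAGGTCA in 1 and 0.826%, and the TCF/LEF word CTTTGATG in 1 and 0.613%. No window held 7 further words, each of which was in so few windows inside any peak that 0 of 100 sets nothing apart: the EGR word GCGTGGGCG (1.27%), the STAT word TTCCNGGAA (1.25%), the second ETS word ACAGGAAGT (1.21%), the T-box word AGGTGTGA (0.920%), the CEBP word TTGCGCAA (0.333%), a p53 word (0.240%) and the HNF4 word CAAAGTCCA (0.160%). ACAGGAAGT and GAGGAAGT overlap CCGGAAGT in their last letters, and a word match describes the letters only.

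Levels are the authors' log2 CPM, which are counts scaled to library size on a log2 scale with a prior count, on which a library with no count in a peak stands at -0.36. Over the gained peaks the library medians were 3.40 to 3.78 in the 9 lymphomas, 1.54, 2.08 and 2.18 in T, 1.25, 1.93 and 1.95 in NKT, and 2.30, -0.36 and 1.98 in NK libraries. Over all peaks of the 14 chromosomes the same medians were 3.19 to 3.51 in the lymphomas and 3.13 to 3.59 in the normal libraries. The gained peaks were thus of ordinary strength in the lymphomas and weak in the normal cells. In such bulk libraries, more cells with an open site and more opening per cell cannot be told apart. Their median mean level over the lymphomas was 3.40, against 3.23 for all peaks, and 59.9% of them lay at or above the median of all peaks by that level. Of the counts in peaks of the 14 chromosomes, they held 2.19% to 2.66% in each lymphoma and 0.376% to 0.691% in each normal library. Their median lead, which is the lymphoma mean minus the highest normal group mean, was 1.14 on the log2 scale, with quartiles of 0.81 and 1.59, against -0.63 for all peaks.

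**Figure D1:**
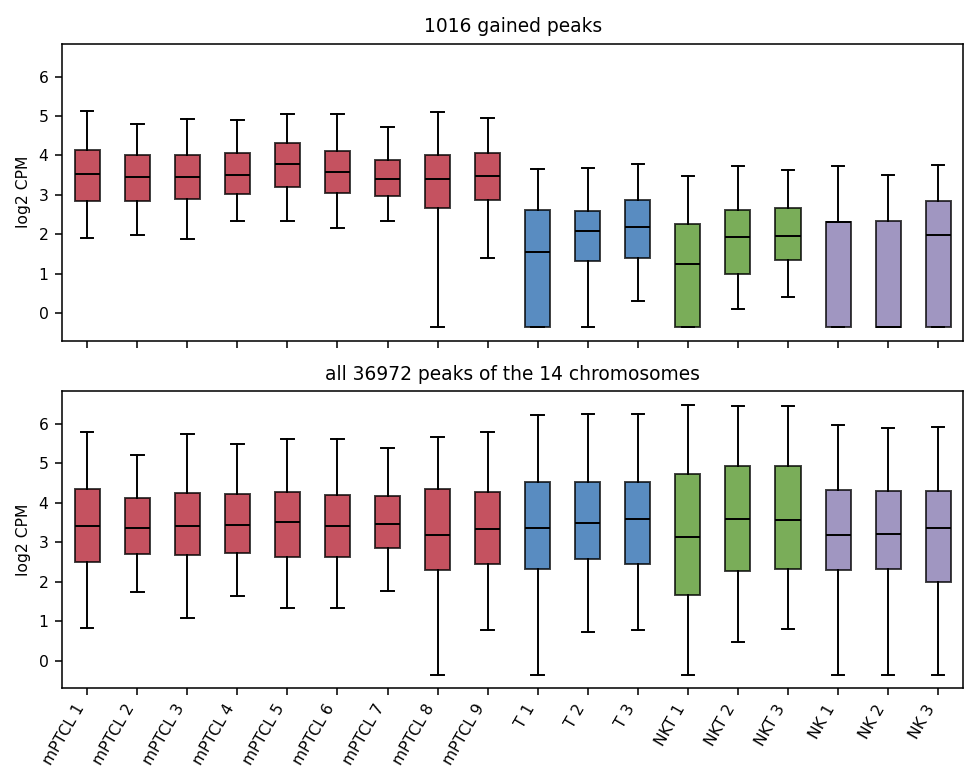
Log2 CPM of the 1016 gained peaks (top) and of all 36972 peaks of the 14 chromosomes (bottom) in each of the 18 libraries; boxes span the quartiles, lines are medians and whiskers reach the 5th and 95th percentiles. The lymphoma medians of the gained peaks lie between 3.40 and 3.78 and those of the normal libraries at 2.30 or below, a gap that the rule itself sets.

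Depth limits the normal side of this contrast. Lymphoma libraries had 670358 to 4844441 counts in peaks, T libraries 979441 to 2358023, NKT libraries 1433904 to 9097014 and NK libraries 417107 to 596601. In NK 1, a peak with 2 counts stands at 2.30 log2 CPM, and in NKT 3 a peak with 2 counts stands at 0.07. The highest normal library was a T library at 451 gained peaks (44.4%, against 30.2% of all peaks), an NK library at 380 (37.4%, against 40.0%) and an NKT library at 185 (18.2%, against 29.8%). The median count behind that highest value was 8 for T libraries, 39 for NKT and 4 for NK. NK 2 had no count at 509 of the gained peaks. The counts of the lymphomas were spread more evenly over peaks: the strongest of the 10 level classes took 28.9% to 37.4% of their counts and 39.1% to 45.5% in the normal libraries, without overlap, and its part in the choice of weak peaks was not tested. In the weakest class 5.9% of peaks were gained and in the strongest 0.0541%.

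The number of gained peaks per lymphoma varied. mPTCL 5 exceeded the highest normal library at 953 of them and mPTCL 8, the shallowest lymphoma, at 719. The other lymphomas lay between 814 and 924. All 9 lymphomas were above at 157 peaks, 8 at 348 and exactly 7 at 511, while 6 were above at a further 712 peaks that the rule leaves out. The separation between the groups can be given as a margin, which is the seventh-highest lymphoma minus the highest normal library. Its median was 0.26 and its largest value 1.83 on the log2 scale, 246 peaks had a margin of at least 0.5 and 34 of at least 1. Most gained peaks therefore sat close to the limit. Just inside it were peaks beside 1600014C23Rik (margin 0.003), Reep4 (0.002) and Fem1a (0.001), and just outside were peaks at Lamb3, Rcor1 and Prss30, where 6 lymphomas were above and the margin was 0.000.

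Each library was also held out in turn, and the peaks were chosen from the rest. The held-out library was then compared with libraries that the choice had used, so the share over all peaks is not the share that unchanged peaks would give, and the excess over it is in part set by the rule. A held-out lymphoma, with at least 6 of the other 8 required, exceeded the highest normal library at 52.2% (mPTCL 8) to 83.6% (mPTCL 5) of the peaks so chosen. At all peaks of the 14 chromosomes the same libraries did so at 9.83% to 16.2%. A held-out normal library stayed below the seventh-highest lymphoma at 96.0% to 97.4% of peaks for NKT, 82.3% to 87.6% for T and 61.7% to 75% for NK. For every normal library the peaks that held were the 1016 gained peaks themselves. These shares therefore only restate how many peaks were chosen without the library. The background for the normal libraries was 30.1% to 44.7%. The shares of lymphomas and of normal libraries measure different orders, so they are not ranked together. Removing NK 3 from the rule raised the number of gained peaks from 1016 to 1646, which is the same result as its share of 61.7%.

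**Figure D2:**
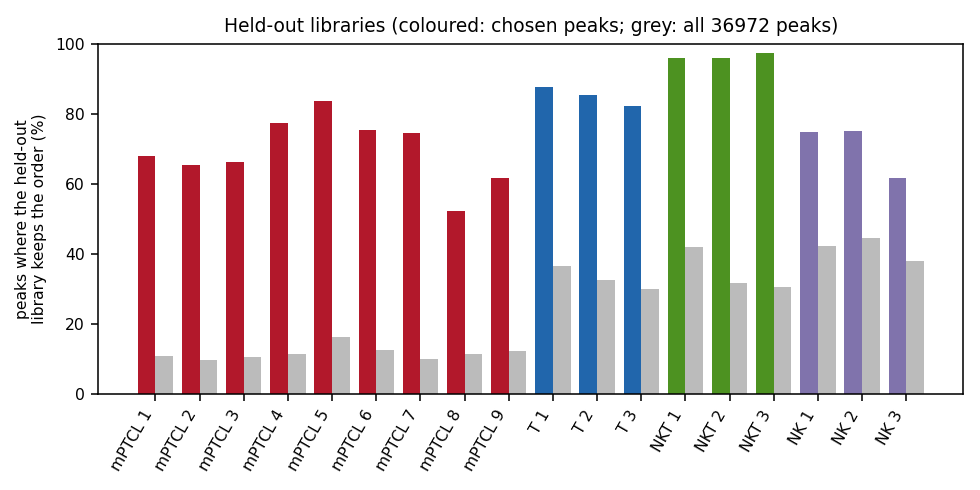
Share of peaks (%) at which a library left out of the choice kept the order, for peaks chosen without it (coloured bars) and for all 36972 peaks of the 14 chromosomes (grey bars), for each of the 18 libraries. Lymphomas kept it at 52.2% to 83.6% of peaks against 9.83% to 16.2%, and normal libraries at 61.7% to 97.4% against 30.1% to 44.7%. The grey bars are not a no-change value, since the libraries compared with had been used in the choice. For normal libraries the peaks that held are the 1016 gained peaks, so the coloured bars restate the number chosen without the library.

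The 12 peaks of largest margin, 1 per gene, had lymphoma medians of 2.88 to 4.31, and 6 of them had no count in any NK library. The first was intergenic on chromosome 6 (chr6:127858404-127858904, positions as deposited on mm10), 28.6 kb from Tspan11, the nearest protein-coding gene in RefSeq. Its lymphoma levels ran from 2.33 through a median of 3.20 to 4.40, the T libraries stood at -0.36, -0.36 and 0.32, the NKT libraries at -0.36, 1.10 and 0.91, and all 3 NK libraries at -0.36. All 9 lymphomas lay above all 9 normal libraries. The lymphoma mean was 3.29 ± 0.73 (SD, n = 9), and the fitted log2 difference from NKT was 3.2 (SE 0.75). The NK group had 0 counts, so the peak was at least 5.38-fold higher in the lymphomas, taking a floor of 3 counts over the NK group.

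Next came a peak flanking Ctsg (chr14:56098734-56099234), the gene of cathepsin G, a serine protease of myeloid granules that shares a gene cluster with granzyme B. Its lymphoma levels were 2.20, 3.54 and 4.10 at the lowest, median and highest library, against 1.54, 1.75 and 1.40 in T, -0.36, 1.10 and 1.64 in NKT and -0.36 in each NK library. Here too all 9 lymphomas lay above every normal library. The fitted log2 differences were 2.25 (SE 0.69) from T and 2.76 (SE 0.64) from NKT, and the lymphomas were at least 5.54-fold above the NK floor. An intergenic peak on chromosome 2 (chr2:166756250-166756750), 35.7 kb from Trp53rkb, had lymphoma levels of 2.08, 4.31 and 4.84. Its T libraries stood at 2.33, 1.33 and 2.56, its NKT libraries at 1.25, 0.12 and 0.68 and its NK libraries at -0.36. The 1 lymphoma that fell among the T libraries was mPTCL 5, at 2.08, and the other 8 were above.

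Of these 12 peaks, 7 separated all 9 lymphomas from the normal libraries. At the promoter of A2ml1 (chr6:128543396-128543896), which encodes a protease inhibitor related to alpha-2-macroglobulin, the lymphomas ran from 3.88 through 4.23 to 4.79. The T libraries stood at -0.36, -0.36 and 2.68, the NKT libraries at -0.36, -0.10 and 0.41 and the NK libraries at 2.30, -0.36 and 2.83. The lymphomas were tightly grouped (4.31 ± 0.27, SD, n = 9), and the normal libraries above 2 rested on 12 counts over the 3 T and 6 counts over the 3 NK libraries. Its lead of 2.72 fell to 1.74 without NK 2. At the promoter of Pxt1 (chr17:28941929-28942429), a testis-expressed peroxisomal gene, the lymphomas ran from 2.96 through 4.28 to 5.26, against 2.33, 1.33 and 1.40 in T, 1.25, 1.46 and 1.10 in NKT and -0.36, -0.36 and 2.83 in NK. The fitted log2 differences were 3.05 (SE 0.66) from T, 3.61 (SE 0.62) from NKT and 3.06 (SE 0.78) from NK cells. At the promoter of Cfap221 (chr1:119997099-119997599), a gene of the ciliary axoneme, the lymphomas ran from 2.67 through 3.79 to 4.12, against 1.54, 1.33 and 1.84 in T, -0.36, 1.0 and 1.28 in NKT and -0.36, -0.36 and 1.98 in NK. Both promoters kept all 9 lymphomas above the normal libraries.

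Aldh1a3, an enzyme that makes retinoic acid, had a gained promoter (chr7:66427301-66427801). Its lymphoma levels were 2.42, 4.0 and 4.35, against -0.36, 2.58 and 2.17 in T, 1.25, -0.10 and 1.28 in NKT and -0.36, 2.33 and 1.98 in NK libraries. The lymphoma that overlapped the normal libraries was mPTCL 6, at 2.42, and the lead of 2.42 became 1.51 without T 1. An intronic peak annotated to Nmnat2 (chr1:153083228-153083728), which makes NAD in neurons, ran from 1.83 in mPTCL 8 through 3.92 to 4.92, against -0.36, 2.35 and -0.36 in T, -0.36, 0.76 and 0.68 in NKT and -0.36, 2.33 and 1.98 in NK. At the deposited promoter of Mir7083, a microRNA gene within Dock6 (chr9:21810885-21811385), the lymphomas ran from 1.04 through 3.08 to 3.88, against -0.36, 1.33 and 1.40 in T, -0.36, 0.30 and 1.10 in NKT and -0.36 in NK libraries. In these 3 peaks a single lymphoma lay within the normal range. The others of the 12 were at Rcbtb2, 1700001O22Rik and an intron of the kinase gene Stk32c, with lymphoma medians of 2.88, 3.98 and 3.80 and highest normal values of 0.78, 2.58 and 2.08. All 12 also met the rule when scaling was done within each chromosome.

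**Figure D3:**
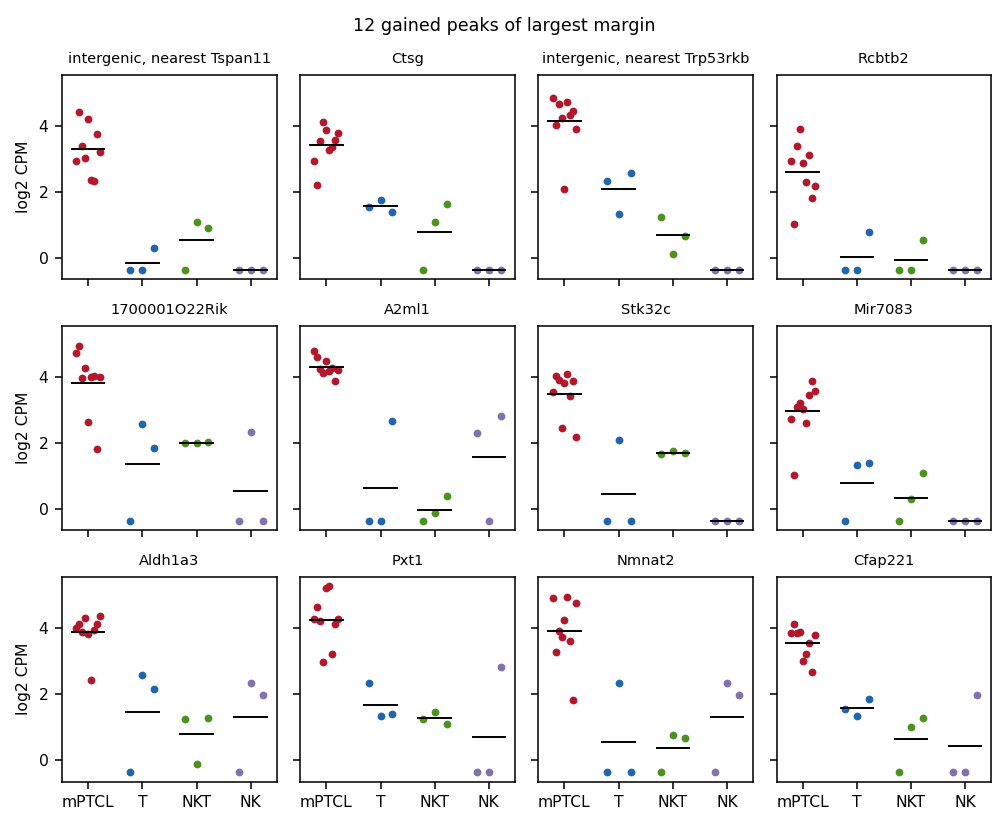
Log2 CPM in every library for the 12 gained peaks of largest margin; points are libraries, lines are group means (9 lymphomas and 3 libraries of each normal group), and -0.36 is a library without a count. In each panel the lymphoma mean lies above all normal libraries, and 7 panels have all 9 lymphomas above.

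Location was read from the deposited annotation. Promoters made up 22.3% of the gained peaks (227 peaks, 95% Wilson interval 19.9% to 25%, counting error only) against 34.8% of all peaks. Intergenic peaks made up 23.0% (234 peaks, 20.5% to 25.7%) against 15.5%, and peaks flanking genes 11.9% (121 peaks) against 8.80%. Intronic peaks were 31.0% (315 peaks) against 31.1%, exonic peaks 7.58% (77) against 6.03%, 3' UTR peaks 3.54% (36) against 2.84% and 5' UTR peaks 0.591% (6) against 0.955%. The gained peaks were therefore more often distal than the rest of the table. Promoters are also the strongest peaks of the table: 3347 of the 3698 peaks in the strongest level class were promoters. In the weakest class 7.44% of promoters and 5.68% of other peaks were gained. With classes numbered from 1, the weakest, to 10, promoters had the smaller share in 4 (3.01% and 3.07%) and 5 (2.78% and 2.89%). They also had it in 9 (0.362% and 0.496%) and 10 (0.0299% and 0.285%), and the larger share in all others. The low promoter share of the whole set was thus not seen at like level in most classes. Among the 157 peaks with all 9 lymphomas above, 33.8% were promoters.

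Within each class the largest margins gave further named peaks. Klrb1a, an NKR-P1 receptor gene, had a flanking peak 4.2 kb away (chr6:128604509-128605009), at 1.83, 3.72 and 4.65 in the lymphomas, 2.33, 2.08 and 2.45 in T, 2.48, 2.57 and 2.29 in NKT and -0.36, -0.36 and 1.98 in NK. A flanking peak of Ltf, the lactoferrin gene of neutrophil granules, stood at 1.97, 3.58 and 4.22 in the lymphomas, and its highest normal library was at 2.08. The lowest lymphoma lay within the normal range at both. The exonic peaks were at 4930486N12Rik, the exchange factor gene Arhgef25 and the adaptor gene Shc3, with margins of 1.20, 0.96 and 0.93. The Arhgef25 peak ran from 3.04 through 3.69 to 5.56 in the lymphomas, and its highest normal library was at 2.33. Shc3 was listed at -0.36 in mPTCL 9, and its lead of 1.72 became 0.92 without T 1 and 1.05 without NKT 1. In 3' UTRs the peaks lay at Ap5b1, a subunit gene of the AP-5 adaptor, the glutamate receptor gene Grm2 and the sterol transporter gene Abcg8, with margins of 0.94, 0.89 and 0.67. The Ap5b1 lead of 1.99 became 1.07 without NK 1. A further intergenic peak lay 34.6 kb from Raly (chr2:154755864-154756364), with lymphoma levels of 2.56, 3.28 and 3.94, and all 9 lymphomas were above the highest normal library at 1.99.

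Gained peaks were spread over many genes. They were annotated to 735 of the 13743 genes with a peak on the 14 chromosomes, 649 of them with 1 gained peak and 19 with 3 or more, and 239 gained peaks had no gene. A distance of at most 10 kb to another gained peak was found for 173 peaks (17%), and of at most 100 kb for 451 (44.4%). No like share was computed for other sets of peaks, so nothing is read from these shares. Other peaks of the same genes had a median lead of -0.21, against -0.66 for all peaks that were not gained. The median lead of these neighbours was thus the higher of the pair. It was still below 0, as most leads are, since a lead subtracts the highest of 3 normal means. Where all gained peaks of a gene lay outside its promoter, the promoter peaks had a median lead of -0.35, against -0.77 for all promoters.

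The symbol Gm20388 carried 19 gained peaks of its 235 peaks on chromosome 8 (chr8:119978727-124350307). This deposited symbol spans a row of other genes, and some of the 19 peaks overlapped Spire2, Zcchc14, Jph3, Gse1, Dpep1 and Zfp469 in RefSeq. A set of 4 lay nearest to Irf8, a transcription factor of lymphoid and myeloid cells, at 66.5 kb, 109.4 kb, 126.6 kb and 131.2 kb. The nearest of these (chr8:120823161-120823661) stood at 2.87, 4.12 and 4.66 in the lymphomas with the highest normal library at 2.83, and all 9 lymphomas were above. The other 3 had margins of 0.32, 0.13 and 0.18, and 7 lymphomas were above at each. The peak in Spire2 (chr8:123343061-123343561), an actin nucleator gene, ran from 2.87 through 3.97 to 5.36, against 2.84, 1.75 and 0.78 in T, 1.99, 1.68 and 1.97 in NKT and -0.36, 1.53 and 1.98 in NK. It was the other Gm20388 peak with all 9 lymphomas above.

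Stk32c, a serine/threonine kinase gene on chromosome 7, had 5 gained peaks of 26, from its introns to its promoter. The promoter peak (chr7:139188634-139189134) stood at 3.03, 3.87 and 4.70 in the lymphomas, 1.99, 2.58 and 2.17 in T, 1.99, 1.0 and 2.02 in NKT and 2.30, 3.21 and 2.83 in NK. The lymphomas overlapped the NK libraries there and lay above T and NKT. Gm30117 had 4 gained peaks of 10 on chromosome 17, and the strongest (chr17:85908710-85909210) separated the lymphomas from T cells far more than from NKT cells. It stood at 4.90, 5.86 and 7.0 in the lymphomas, 2.33, 2.94 and 2.96 in T, 5.72, 5.56 and 5.34 in NKT and 4.43, 5.56 and 4.52 in NK, with fitted log2 differences of 3.47 (SE 0.42) from T, 0.60 (SE 0.30) from NKT and 1.24 (SE 0.37) from NK. Synj2, an inositol phosphatase gene on chromosome 17, had 4 of 22, with margins of 0.24 to 0.80. Btbd9, Cfap126, Dagla, Gfra1, Gm29050, Megf11, Pik3ap1, Prkce, Runx2, Ryr1, Spire2, Tead3, Tgfa, Uhrf1 and Zdhhc14 had 3 each.

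Lists of 12 functional groups of lymphocyte genes held 21 gained peaks, which is 2.07% of the set, and the lists held 1123 peaks, or 3.04% of those on the 14 chromosomes. Of the 21, 20 of largest margin are named here; the one left out lay beside Syk. NK receptors, a list that does not include the Klrb1a gene described above, had 3 gained peaks of 87 (3.45%), NK receptor signalling 6 of 104 (5.77%), cytotoxic effectors 3 of 52 (5.77%), chronic stimulation and exhaustion 3 of 72 (4.17%) and NK and effector transcription factors 3 of 114 (2.63%), beside 2.75% over all peaks. T-cell transcription factors had 1 of 168 (0.595%), cell cycle and growth 1 of 125 (0.800%) and homing and tissue residency 1 of 68 (1.47%). The TCR complex and signalling had 0 of 140, AP-1 and NF-kappaB factors 0 of 81, cytokine receptors and JAK-STAT 0 of 70 and p53 targets 0 of 47. The median lead over all peaks of a list ran from -0.34 for cytotoxic effectors to -1.15 for the TCR list, beside -0.63 over all peaks of the 14 chromosomes, where subtracting the highest of 3 normal means puts most leads below 0.

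Among cytotoxic genes, Gzmk, which encodes a granzyme, had a gained peak that the deposited annotation calls intronic and RefSeq places 2.3 kb from the gene (chr13:113183244-113183744). Its lymphoma levels were 3.83, 4.66 and 5.23, against 2.33, 1.33 and 1.84 in T, 1.25, 2.04 and 3.01 in NKT and -0.36, 3.75 and 2.83 in NK. All 9 lymphomas were above, with fitted log2 differences of 3.08 (SE 0.58) from T, 2.43 (SE 0.49) from NKT and 1.95 (SE 0.59) from NK, and the lead of 2.50 became 1.31 without NK 1. The promoter peak of Gzmm, another granzyme gene (chr10:79688890-79689390), stood at 2.50, 3.44 and 4.45 in the lymphomas, -0.36, 1.33 and 2.17 in T, 1.99, 1.46 and 0.68 in NKT and 2.30, 3.21 and 1.98 in NK. A flanking peak of Fasl, the death ligand gene, stood at -0.36, 2.84 and 3.46 in the lymphomas with the highest normal library at 1.98. At Gzmm and Fasl 7 lymphomas were above.

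Among receptors, Klrg1, a cadherin-binding inhibitory receptor, had a gained promoter peak (chr6:122282495-122282995) and a gained exonic peak. The promoter stood at 3.03, 4.22 and 4.89 in the lymphomas, -0.36, 2.58 and 3.04 in T, 2.84, 0.62 and 1.28 in NKT and -0.36, 2.83 and 1.98 in NK, and 8 lymphomas were above. Its lead of 2.23 became 1.17 without T 1. Il18r1, a chain of the interleukin-18 receptor, had an intronic peak at 2.22, 3.58 and 4.12 in the lymphomas, -0.36, 1.33 and 2.45 in T, -0.36, -0.10 and 0.41 in NKT and 2.30, 2.33 and 2.83 in NK. Its fitted log2 difference was 4.87 (SE 0.81) from NKT and 1.08 (SE 0.72) from NK, so the NK libraries stood nearer to the lymphomas.

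Among signalling genes, Pik3ap1, an adaptor that links receptors to PI3K, had 3 gained peaks of 28 within its introns. The one of largest margin (chr19:41334174-41334674) stood at 2.57, 3.40 and 3.65 in the lymphomas, 1.54, 1.33 and 1.84 in T, -0.36, 0.62 and 1.43 in NKT and 2.30, 2.33 and -0.36 in NK, with all 9 lymphomas above and a lead of 1.72 that became 0.98 without NK 3. The second, at chr19:41336831-41337331, did not meet the rule when scaling was done within chromosomes. Plcg2, a phospholipase below B-cell and NK receptors, and Fyn, a Src-family kinase, had an intronic peak each, with leads of 0.83 and 0.33. For Fyn mPTCL 5 stood at 1.75 and the NKT libraries at 3.48, 3.80 and 3.95, and 7 lymphomas were above.

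Among genes of chronic stimulation, the intronic peak of Pdcd1, the PD-1 gene (chr1:94040207-94040707), stood at 3.00, 3.79 and 5.21 in the lymphomas, 2.33, 0.72 and 2.17 in T, -0.36, 1.0 and 0.68 in NKT and 3.18, 2.33 and 2.47 in NK. The lymphomas lay above all T and NKT libraries and overlapped NK 1. Entpd1, which encodes the ectonucleotidase CD39, stood at 1.48, 3.30 and 3.81 with the highest normal library at 2.30, and Rgs16, a regulator of G-protein signalling, at 2.33, 2.96 and 3.88 with the highest at 2.45. The Rgs16 lead of 1.16 became 0.76 without NK 3. Among transcription factor genes, Rora, which is active in innate lymphoid cells, stood at 2.84, 3.62 and 4.28 in the lymphomas and 3.14, 3.2 and 2.68 in NKT libraries. Prdm1, the gene of Blimp-1, stood at 1.32, 3.19 and 3.58 with the highest normal library at 2.35. Smad3, a mediator of TGF-beta signals, ran from 2.07 through 3.28 to 5.10 with the highest normal library at 2.48. Nfil3, needed for NK-cell development, stood at 3.18, 4.32 and 4.95 in the lymphomas, 3.22, 3.48 and 4.06 in T, 2.84, 3.76 and 3.60 in NKT and -0.36, 2.33 and -0.36 in NK, so that its low group was the NK cells. The lowest lymphoma fell within the normal range at each of these factor genes.

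Cd69, a receptor that holds lymphocytes in tissue, had a flanking peak at 1.81, 2.74 and 4.34 in the lymphomas with the highest normal library at 2.45, and its lead of 1.20 became 0.62 without T 1 and 0.74 without NK 2. The promoter peak of Mycn, a MYC-family gene (chr12:12942178-12942678), stood at 2.67, 4.04 and 5.05 in the lymphomas, 2.84, 3.10 and 3.20 in T, 1.25, 1.87 and 2.48 in NKT and 3.72, 2.83 and 3.57 in NK. Its lead was 0.55, or 0.28 without NK 2, and it did not meet the rule when scaling was done within chromosomes.

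**Figure D4:**
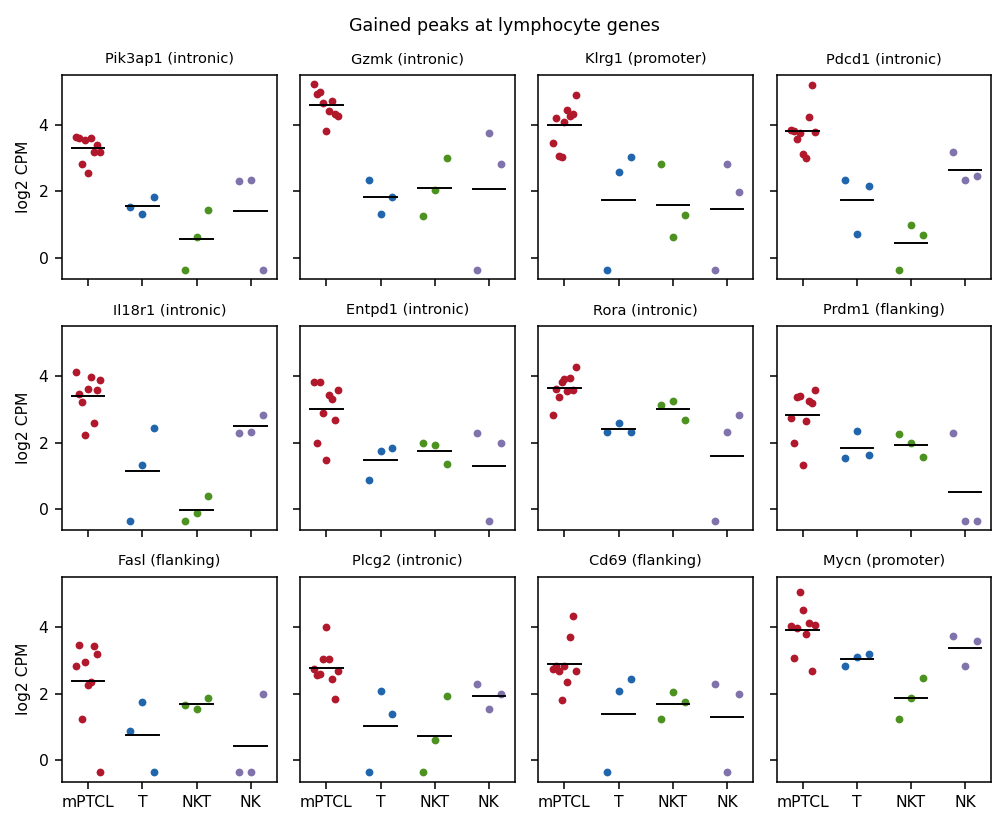
Log2 CPM in every library for gained peaks at 12 genes of lymphocyte function and growth; points are libraries and lines are group means (9 lymphomas, 3 libraries per normal group). The lymphomas of Pik3ap1 and Gzmk lie above every normal library, and in the other panels at least 1 lymphoma lies within the normal range.

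The listed markers of other cell types held no gained peak. B cells had 0 of 4 peaks on the 14 chromosomes, myeloid and Kupffer cells 0 of 9 and hepatocytes 0 of 3. Endothelial and stromal cells had 0 of 5 and erythroid cells 0 of 4. At the 2.75% of all peaks that were gained, 25 such peaks would hold fewer than 1, so the zeros set nothing apart. The lists do not include Ctsg and Ltf, the granule genes whose flanking gained peaks are described above. The median lead was 1.06 over the 4 B-cell peaks, 0.08 over the hepatocyte, 0.07 over the endothelial and stromal, -0.09 over the erythroid and -0.51 over the myeloid peaks, beside -0.63 over all peaks and 1.14 over the gained peaks. On all autosomes, 5 of 9 B-cell marker genes had a peak, and their summed level was 139 to 268 CPM for the lymphomas, 84.7 to 104 for T, 45.3 to 62.5 for NKT and 156 to 224 for NK libraries. Hepatocyte markers had a peak at 4 of 10 genes and summed to 47.7 to 98.3 CPM for the lymphomas, 19.4 to 36.1 for T, 4.18 to 18.6 for NKT and 37.4 to 78.8 for NK libraries. Among the markers without a peak were Ms4a1, Alb, Apoa1, Adgre1 and Lyz2. Myeloid markers, with 6 of 12 genes, summed to 110 to 182 CPM in the lymphomas and 64.5 to 182 in the normal libraries, endothelial and stromal markers, with 6 of 11, to 160 to 267 and 106 to 277, and erythroid markers, with 4 of 8, to 47.4 to 88.6 and 34.7 to 69.1. The B-cell and hepatocyte sums were thus above T and NKT in every lymphoma and overlapped the NK range. They took in 17 B-cell and 7 hepatocyte peaks, of which 4 and 3 lay on the 14 chromosomes. The rest lay on the 5 chromosomes set aside by the rule. There the median over all peaks of the lymphoma mean minus the normal mean was 0.44 (chromosome 4) to 1.15 (chromosome 15). The part of chromosome level in these sums, and of the sums in the gained peaks, was not tested. As a check of the sorts, T-cell genes (Cd3e, Cd3g, Cd3d, Thy1, Cd2 and Lck) summed to 315 to 506 CPM for the lymphomas, 439 to 581 for T, 650 to 688 for NKT and 345 to 364 for NK libraries. NK genes (Ncr1, Klrb1c, Eomes and Tyrobp) summed to 92.5 to 164, 30.6 to 54.6, 28.6 to 32.9 and 134 to 165. The lymphoma range thus overlapped the T and NK ranges on the first sum and the NK range on the second.

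Chromosome 17 held 241 of the gained peaks (23.7%) and 10.5% of the peaks examined. On it 6.18% of peaks were gained, against 2.34% on the other 13 chromosomes together. The whole chromosome stood high in the lymphomas: the median over all its peaks of the lymphoma mean minus the normal mean was 0.64 on the log2 scale, and the next highest were 0.26 on chromosome 14, 0.17 on chromosome 12 and 0.16 on chromosome 8. Chromosome 17 took 4.90% to 8.01% of each lymphoma's counts and 5.15% to 5.63% of each normal library's. Among the lymphomas, mPTCL 6 was highest, with a median difference of 1.02 over chromosome 17 peaks and 33.5% of them above every normal library. mPTCL 8 was lowest, with 0.11 and 12.6%. At the other end, chromosomes 13 and 16 had median differences of -0.39 and -0.34 and 1.42% and 1.32% of their peaks gained. The share of gained peaks thus moved with the level of the chromosome as a whole, which is in part built in, since the rule used the same levels.

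**Figure D5:**
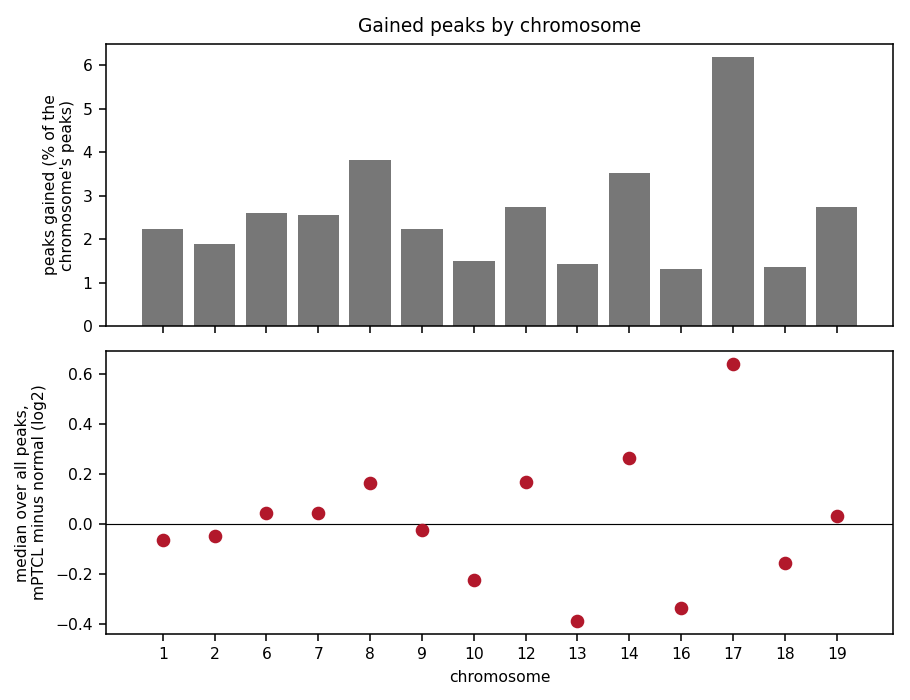
Share of each chromosome's peaks that were gained (bars, %) and the median over all its peaks of the lymphoma mean minus the normal mean (points, log2 CPM) for the 14 chromosomes. Chromosome 17 is highest in both, at 6.18% and 0.64, and chromosomes 13 and 16 are lowest in the median, at -0.39 and -0.34.

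Scaling the counts within each chromosome removes such shifts, and 1655 peaks then met the rule, 860 of them among the 1016. Chromosome 17 then had 122 gained peaks (3.13%), the lowest share of the 14, and 118 of these were among the 241. On chromosomes 1 and 2 all 75 and 74 gained peaks met the rule under both scalings. Without chromosome 17, the other 13 chromosomes kept 775 gained peaks. The 5 chromosomes that the rule sets aside had 2139 of 24252 peaks (8.82%) that would have met it.

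In the edgeR fit over all 18 libraries, 741 gained peaks (72.9%) were higher in lymphomas than in NKT cells at an adjusted p below 0.05, beside 23.2% of all 61220 peaks tested and 15.5% of the 36968 tested on the 14 chromosomes. From T cells 398 (39.2%) were higher, beside 8.27% and 6.07%, and from NK cells 309 (30.4%), beside 6.03% and 3.51%. None was lower in any of the 3. As the rule used these contrasts, the counts describe the set and nothing is read from them. All 3 comparisons together were passed by 134 gained peaks (13.2%), beside 0.813% of all peaks and 0.376% of those on the 14 chromosomes, and none by 166 (16.3%). The counts depended on single libraries: 190, 225 or 219 passed against T without T 1, T 2 or T 3, 445 against NKT without NKT 2, and 117 or 192 against NK without NK 2 or NK 3. The median fitted log2 differences of the gained peaks were 1.87 from NKT, 1.61 from T and 1.99 from NK, against -0.12, -0.03 and 0.09 over all peaks of the 14 chromosomes. The NK group had 0 counts at 118 gained peaks and the T group at 7, and with those at their lower bound the NK median was 1.89.

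Between the normal groups, edgeR's quasi-likelihood test with Benjamini-Hochberg adjustment called few gained peaks. NKT cells were higher than T at 6 (0.591%, beside 3.48% of all peaks) and lower at 9 (0.886%, beside 1.75%). NK cells were higher than T at 3 (0.295%, beside 2.02%) and lower at 13 (1.28%, beside 2.77%), and higher than NKT at 24 (2.36%, beside 6.81%) and lower at 26 (2.56%, beside 10.3%). Nothing is read from these low shares: the rule had used the highest normal library, most gained peaks passed the count filter only through the lymphomas, and 160 of the 1016 passed it in the 9 normal libraries alone. The balance of higher and lower calls also turned with the scaling. With DESeq2's size factors in edgeR, NK cells were higher than NKT at 46 and lower at 9 (37 and 10 with library totals, 84 and 8 with DESeq2), and higher than T at 6 and lower at 6 (5 and 6, and 13 and 4). NKT cells were higher than T at 4 and lower at 17 (4 and 15, and 6 and 41). These size factors moved the median log2 difference of all peaks from -0.17 to 0.34 for NK against NKT, from -0.18 to 0.11 for NK against T and from -0.07 to -0.28 for NKT against T, and from 0.27 to 0.74 for the lymphomas against NKT.

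The gained peaks also differed in how evenly the lymphomas shared them. The median SD over the 9 lymphomas was 0.63 log2 CPM, against 0.65 over all peaks. Among gained peaks with a mean of at least 20 counts, the most even were promoters: Trim9, a neuronal ubiquitin ligase gene, at 5.67, 6.00 and 6.26 (5.99 ± 0.18, SD, n = 9), Lrfn4, a synaptic adhesion gene, at 3.92, 4.16 and 4.51 (4.15 ± 0.19), and Cyp1b1, a cytochrome P450 gene, at 5.09, 5.50 and 5.80 (5.46 ± 0.20). The T libraries stood at 4.46, 4.74 and 5.08 for Trim9, at 3.37, 2.35 and 2.78 for Lrfn4 and at 4.88, 4.92 and 5.36 for Cyp1b1. For Lrfn4 the highest normal library was NK 1, at 3.48. All 9 lymphomas were above every normal library for Trim9 and Lrfn4, and 7 for Cyp1b1. The least even was the promoter of Gnao1, a G-protein subunit gene, at 1.25 in mPTCL 3, 1.83 in mPTCL 7 and 4.10 to 6.74 in the other 7, with the highest normal library at 3.48. The intronic peaks of Anks1 and Gm29050 followed (SD 1.66 and 1.63), each with no count in mPTCL 8, and the Anks1 lead of 0.42 became 0.13 without T 2.

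The authors deposited a second, smaller peak table of the same libraries. Of the gained peaks, 80 (7.87%) overlapped a peak of it, against 52.5% of all peaks on the 14 chromosomes, and 0 had an identical start, against 31.6%. Among the 5 stronger level classes the overlap was 35.0% of 217 gained peaks and 81.2% of all peaks, and among the 5 weaker it was 0.501% of 799 and 23.7%. The gained peaks were thus less covered by the smaller table at both levels. How either table's peaks were chosen is not given in the sources used here, so the choice of peaks and the gained state cannot be told apart.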

How the data were processed

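Per the labels' protocols, each of the 18 mouse libraries was made from sorted cells with Tn5. The authors deposited whole-number counts per peak, not normalized, and log2 CPM values that equal those of edgeR with TMM scaling and a prior count of 2, recomputed from the counts, to within 0.0005. MACS2 2.1.2, bedtools, edgeR 3.24.3 and the mm10 build are named in the submitters' processing notes, without a role. Not given in the sources used here are how reads were aligned, whether duplicates were removed, whether read ends were shifted for Tn5 and how peaks were selected. Whether deposited positions count from 0 or 1 is not stated.

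The rule was applied to the deposited log2 CPM of the larger table. Counts were tested with edgeR 4.0.16 (R 4.3.3, limma 3.58.1), by quasi-likelihood in 1 fit of 4 groups over all 18 libraries, and p-values were adjusted by Benjamini-Hochberg over 61220 peaks. The biological coefficient of variation was 0.431, on 14 residual degrees of freedom, and each log2 difference has its standard error (SE). For a group without counts the bound uses a floor of 3 counts over that group, and Wilson intervals are at 95% confidence. Both cover counting error only, since reads copied by PCR and lacking molecular identifiers are not separate molecules. The fitting script was tested on simulated data.

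Peaks are named by rule: the 12 of largest margin, 1 per gene, the 3 of largest margin in each class with at least 20 gained peaks, up to 20 on the gene lists, the 4 genes with most gained peaks, the 3 just inside and 3 just outside the limit, and the 3 of highest and of lowest spread with a mean of at least 20 counts. Of 13743 deposited symbols, 86.9% matched RefSeq, which gave the promoter sequences and nearest genes. The rule, the gene lists and the comparisons were chosen with earlier results of these data known. The alternatives were other limits, scalings, filters and prior counts, DESeq2 1.42.0, the smaller table, all autosomes, and each library or normal group left out; leaving out chromosome 17 was added after the data were seen.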

Additional observations from a re-analysis of the deposited data

Results flagged for a closer look

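Among 88 sets of 9 lymphoma values that were checked, 14 had a library far from the other 8. A chance rate of about 1 in 20 does not hold for these sets, so no excess is read from the 14. The sets included gained peaks, which the rule admits with some lymphomas low, and peaks named for their high spread, such as Gm29050 and Anks1. In 6 of the 14 sets the library was mPTCL 8, the shallowest lymphoma, and it was low each time. It had no count (-0.36 log2 CPM) at the peaks of Gm30117 (chr17:85929609-85930109), Synj2 (chr17:6015126-6015626), Gm29050, Anks1 and Jph3, and stood at 1.83 at a Gm20388 peak 3.0 kb from Cdt1. mPTCL 2 was low at Mir7083 (1.04), at a Gm20388 peak 2.9 kb from Cbfa2t3 (1.04) and at Rcor1 (-0.36), which lies just outside the rule. mPTCL 5 was low at the intergenic peak nearest to Trp53rkb (2.08) and high in its median over the gained peaks (3.77). mPTCL 6 was low at Aldh1a3 (2.42) and high at Arhgef25 (5.56). mPTCL 3 was low at the exonic Stk32c peak (3.64). The part of depth and of chromosome level in these values was not tested.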

How the results depend on the processing

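The number of gained peaks, 1016, depended on where the limit was put: it was 157 with all 9 lymphomas above, 505 with at least 8, 1728 with at least 6, 34 with a margin of at least 1 and 463 with a mean of at least 20 counts. It was 1655 with scaling within chromosomes, 3155 over all 19 autosomes, 470 in the smaller table, 1969 without the T libraries and 3765 without the NK libraries. It stayed within 1.5 times at 1471 with DESeq2's size factors, 1322 with library totals, 1431 without NKT and 775 without chromosome 17. Leaving out 1 library gave 1043 to 1646, the highest without NK 3 and beyond 1.5 times. Leaving out a library or a normal group could not lower the number. Fewer normal libraries had then to be exceeded, or at least 6 of the other 8 lymphomas were enough, so all 1016 peaks stayed in. The prior count does not change the order of libraries within a scaling here, and 1016 peaks remained at prior counts of 0.5 and 5. The promoter share of 22.3% was 33.8% with all 9 lymphomas above, 26.0% with DESeq2's size factors, 28.1% at a mean of at least 20 counts, 47.0% in the smaller table, 18.6% without NK and 20.2% to 22.9% without 1 normal library. The median lead of 1.14 was 1.61 with all 9 lymphomas above, 0.73 in the smaller table, 1.32 without NK and 1.04 to 1.14 without 1 normal library. The promoter share and the lead were not recomputed without single lymphomas. The causes were not tested.

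Gained peaks passing against NKT, 741, were 436 at a mean of at least 20 counts, where 463 were tested, and 445 to 885 without 1 normal library. Those against T, 398, were 791 with DESeq2 and 190 to 512 without 1 normal library. Those against NK, 309, were 194 at a mean of at least 20 counts and 117 to 353 without 1 normal library. Between normal groups, 15 gained peaks differed for NKT against T (47 with DESeq2, 23 with only these libraries, 7 to 20 without 1 normal library), 16 for NK against T (1 with only these libraries, 4 to 16) and 50 for NK against NKT (92 with DESeq2, 31 at a mean of at least 20 counts, 3 with only these libraries, 18 to 51). Fits of 2 groups alone tested fewer gained peaks, since the count filter kept 216, 36 and 51.

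The normal libraries share replicate numbers, but same-numbered libraries did not deviate together (correlations of -0.037 to 0.047 between T and NKT, T and NK, and NKT and NK). In the 9 normal libraries, where 160 gained peaks were tested, 9, 3 and 11 differed for NKT against T, NK against T and NK against NKT without the replicate block, and 5, 1 and 8 with it.

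Of 1053 recomputed leads of 81 named gained peaks under 13 settings, 1017 moved by less than the spread between lymphomas, 36 moved further and 0 changed sign. A lead uses only the highest normal group mean, so leaving out a library of another group often cannot change it. Many of these values were therefore set in advance, and the tally does not measure how firm the leads are. The depth of the NK libraries, at most 596601 counts, limits what can be said of weak peaks: 361 gained peaks had 3 counts or fewer over the NK group.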
